A study of Caenorhabditis elegans with 24 samples.

Results

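The 10 genes described here encode enzymes that build unsaturated and long-chain fatty acids in *Caenorhabditis elegans*. They are the 7 fatty acid desaturases *fat-1* to *fat-7* and the 3 fatty acid elongases *elo-1*, *elo-2* and *elo-5*, chosen by name from the 46934 genes of the count table. The rule uses no measured value, although the genes were chosen with earlier results of these data known. All 10 of the 10 genes passed the filter of at least 10 counts in at least 3 libraries and were among the 15256 genes tested.

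Desaturases place double bonds in fatty acyl chains, and elongases add carbon units to the chain end. In the worm, FAT-5, FAT-6 and FAT-7 place the first double bond, FAT-5 mainly in palmitic acid and FAT-6 and FAT-7 in stearic acid, which ELO-2 makes from palmitic acid. FAT-2 turns the resulting oleic acid into linoleic acid, FAT-1 makes the omega-three series, and FAT-3, ELO-1 and FAT-4 act in turn on the way to arachidonic and eicosapentaenoic acid. ELO-5, with ELO-6, elongates branched-chain fatty acids. The balance of these products sets how fluid membranes are, and in ectotherms more saturated lipids are known to accompany growth in warmth, which is why these genes are of interest after a heat-shock.

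The data are RNA-sequencing counts from 24 libraries of whole animals, 3 biological replicates for each of 8 conditions. The 4 genotypes were wild-type N2, *hsf-1FL* (over-expression of full-length *hsf-1* under the neuronal promoter *rab-3p*), *hsf-1CTD* (the same promoter driving *hsf-1* without its C-terminus), and *hsf-1(sy441)*, a mutant of the endogenous gene that lacks the C-terminus in all cells. HSF-1 is the transcription factor of the heat-shock response. About 800 adults at day 1, grown at 20 °C on HT115 bacteria with the empty vector pL4440, made up each library, and heat-shocked (HS) animals spent 2 h at 34 °C and 1 h at 20 °C before collection, while untreated (UT) animals did not. The transgenes were expressed in neurons, and RNA came from the whole animal, so a change confined to few cells is diluted. In whole-animal RNA, fewer cells of a type and less RNA per cell cannot be told apart.

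Library totals ranged from 11215696 to 19794446 counts. *hsp-16.2*, a small heat-shock protein gene, rose from at most 1.93 CPM (the count of a gene scaled to library size) in untreated libraries to at least 126 CPM after heat-shock, so treatment labels and data matched. *hsf-1* lay between 125 and 170 CPM in the untreated libraries with a wild-type endogenous gene and between 49.6 and 103 CPM in untreated *hsf-1(sy441)*, a level that does not test for the truncation itself, and transgene reads were not separated from endogenous ones. Among marker genes, 8 body wall muscle genes summed to 5856 to 10100 CPM in untreated *hsf-1(sy441)* against 2989 to 4135 CPM in untreated N2, and replicate 3 of *hsf-1(sy441)* was the highest in both treatments. Sperm genes were also highest in that replicate, with 190 CPM summed over 8 genes when untreated and 279 CPM after heat-shock, against at most 3.04 CPM in any N2 library (*ssp-9* was at 0 in all untreated N2 libraries), and replicate 1 of *hsf-1FL* held 80.1 and 67.2 CPM.

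On the WBcel235 genome, 8 of the 10 genes lie on chromosome IV and 2 on chromosome V. *fat-4* (IV, 9799429 to 9802226) ends 796 bases before *fat-3* (IV, 9803023 to 9806119) on the same strand, and *fat-1* (IV, 13315644 to 13318811) is separated from *fat-2* (IV, 13323873 to 13326395) by 5061 bases, also on the same strand. *fat-6* lies on the minus strand of IV from 11913692 to 11915687, *elo-1* on the plus strand from 9526366 to 9528336, *elo-2* on the minus strand from 17466062 to 17467408 and *elo-5* on the minus strand from 5374616 to 5377117. The chromosome V genes are *fat-5*, at 17725004 to 17726818, and *fat-7*, at 7151353 to 7153146. FAT-6 and FAT-7 are close paralogs, and the handling of reads that match both is not given in the sources used here, so their split is uncertain. The exons of *elo-5* share 162 bases with *F41H10.3* on the other strand (1993 to 4235 counts per library), and those of *fat-5* share 28 bases with *twk-42* (27 to 84 counts).

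Per kilobase of exon (RPKM), *fat-2* was the most abundant of the 10 transcripts in 15 of the 24 libraries, *fat-6* in 5 and *elo-1* in 4. In untreated N2, *elo-1* was at 227 ± 11.3 RPKM (SD, n = 3 here and below), *fat-2* at 223 ± 30.7, *fat-1* at 190 ± 15.4, *fat-4* at 128 ± 15.4, *fat-6* at 117 ± 52.3, *fat-3* at 91.4 ± 72.8, *elo-2* at 86.5 ± 27.3, *elo-5* at 73.6 ± 46.4, *fat-7* at 21.7 ± 27.5 and *fat-5* at 14.4 ± 11.9. Neighbours in that order differed in mean by less than the larger SD of the pair, except *fat-2* and *fat-1*, *fat-1* and *fat-4*, and *elo-5* and *fat-7*. In heat-shocked *hsf-1(sy441)* the order was *fat-2* at 728 ± 154 RPKM, *fat-6* at 649 ± 166, *fat-1* at 438 ± 63.4, *elo-1* at 200.5 ± 40.4, *fat-4* at 160.0 ± 18.2, *fat-7* at 145 ± 42.5, *fat-3* at 102 ± 13.8, *fat-5* at 42.2 ± 21.5, *elo-2* at 37.6 ± 18.3 and *elo-5* at 20.9 ± 8.10, so that *elo-2* and *elo-5* took the last places. *fat-5* was the lowest in 13 libraries, *fat-7* in 7, *elo-5* in 3 and *fat-3* in 1.

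**Figure D1:**
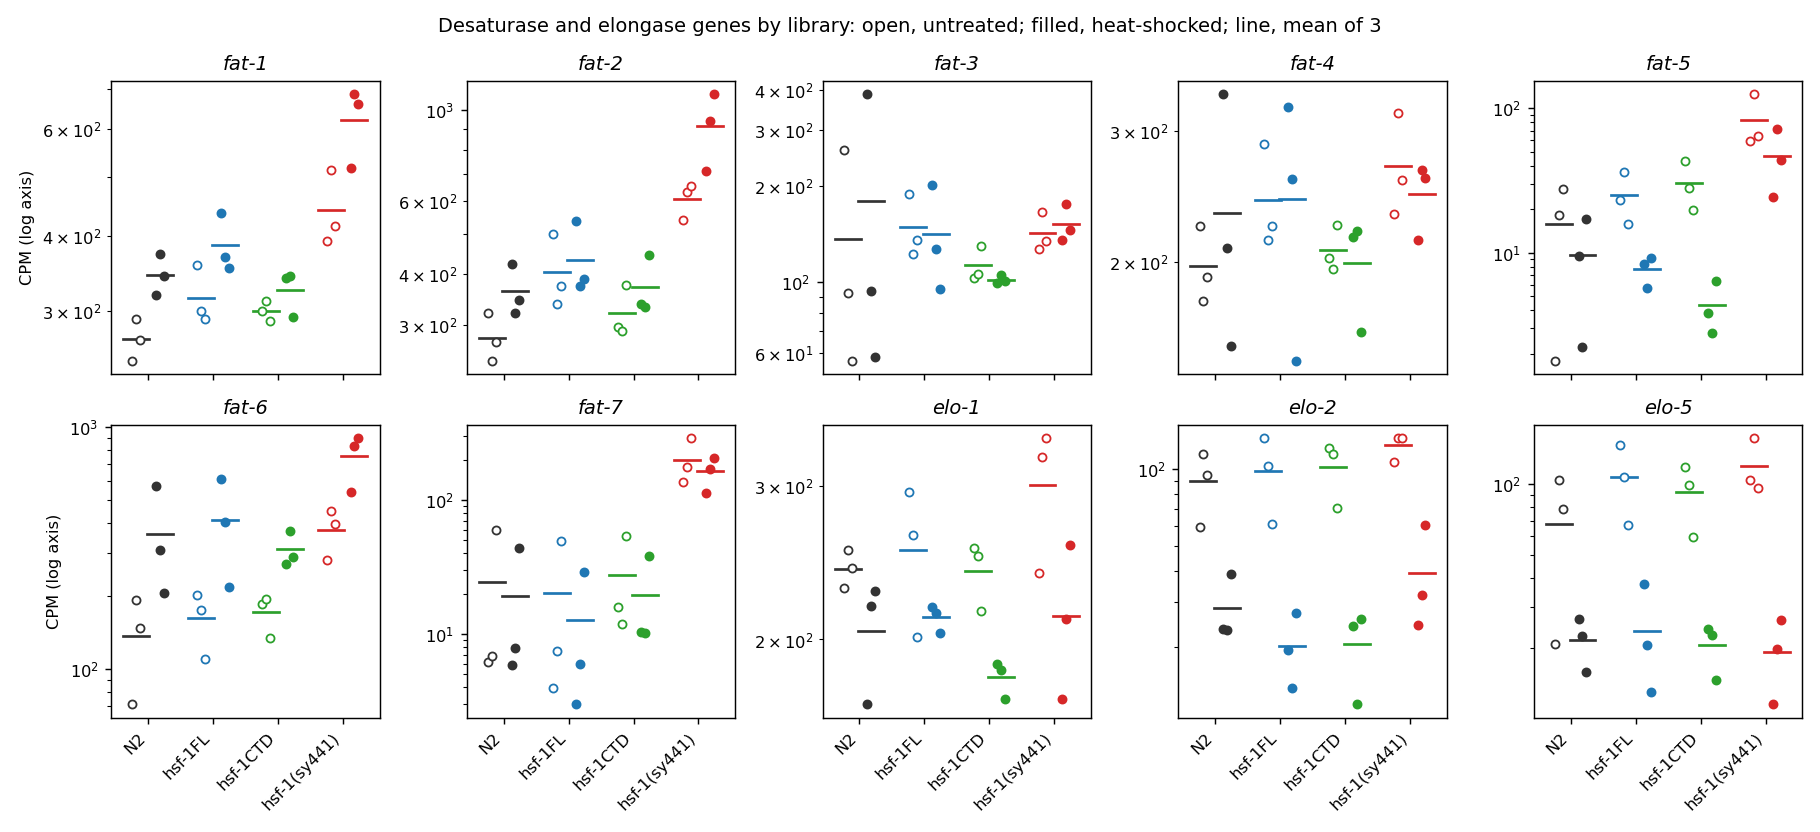
Level of each gene in every library (CPM, log axis), with open points for untreated and filled points for heat-shocked animals and a line at the mean of 3 libraries. The heat-shocked libraries of *elo-2* lay below the untreated ones in all 4 genotypes, and those of *fat-6* lay above. *hsf-1(sy441)* stood above the other genotypes for *fat-1*, *fat-2*, *fat-5* and *fat-7* in both treatments.

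The first question was how a heat-shock changed these transcripts in each genotype. The elongase *elo-2* fell after heat-shock in *hsf-1FL* and *hsf-1CTD*, to 0.204 and 0.202 of its untreated level, and *elo-5* fell in *hsf-1(sy441)*. These were the 3 of 40 tests that passed the threshold, an edgeR P-value under 0.01 after Benjamini-Hochberg adjustment over all genes tested, and log2(fold-change) values are given ± SE. No desaturase passed in this fit, although *fat-6* was higher after heat-shock in all 3 replicates of each genotype. With the replicate number as a block within each genotype (the paired fit), *fat-1*, *fat-2*, *elo-1* and *elo-2* also passed in *hsf-1(sy441)* and *elo-5* in *hsf-1FL*.

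By genotype, edgeR called 0 of the 10 genes in N2, where 0.669% of all genes tested passed, and 1 of 10 in each other genotype (0.819% of all genes for *hsf-1FL*, 0.964% for *hsf-1CTD* and 1.72% for *hsf-1(sy441)*). In N2, 4 of the 10 had an unadjusted p under 0.05 (12.2% of all genes), and the Wald test of DESeq2 called 1 of 10 (2.39% of all genes). The paired fit called 0 of 10 in N2 (2.08% of all genes), 2 of 10 in *hsf-1FL* (3.49%) and 5 of 10 in *hsf-1(sy441)* (6.09%). In *hsf-1CTD* the libraries of replicate 1 did not deviate together (r of -0.048), unlike those of replicates 2 (0.20) and 3 (0.27). For *hsf-1CTD* that fit is therefore given only with the other alternatives. The median log2(fold-change) of the 10 genes was 0.0013 in N2 (0.016 over all genes tested), -0.21 in *hsf-1(sy441)* (0.058), -0.17 in *hsf-1FL* (-0.031) and -0.28 in *hsf-1CTD* (-0.021).

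*elo-2*, the elongase of palmitic acid, was at 59.1, 115 and 95.0 CPM in the 3 untreated N2 libraries and at 23.5, 23.3 and 38.6 CPM in the heat-shocked ones. In *hsf-1FL* it fell from 133, 103 and 60.8 CPM to 19.5, 13.8 and 27.2 CPM, and in *hsf-1CTD* from 121, 115 and 70.3 CPM to 24.1, 11.9 and 25.7 CPM. In *hsf-1(sy441)* it was at 107, 132 and 133 CPM untreated and at 24.5, 32.0 and 60.4 CPM after heat-shock. In none of the 4 genotypes did the untreated and heat-shocked libraries overlap, and the highest heat-shocked value of all, 60.4 CPM, came from replicate 3 of *hsf-1(sy441)*. For scale, groups did not overlap with heat-shocked libraries lower for 6.46% of all genes in N2, 9.65% in *hsf-1(sy441)*, 13.5% in *hsf-1FL* and 15.7% in *hsf-1CTD*.

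The log2(fold-change) of *elo-2* was -2.29 ± 0.39 in *hsf-1FL* (adjusted P-value 0.0027) and -2.31 ± 0.39 in *hsf-1CTD* (adjusted P-value 0.0023). It was -1.65 ± 0.38 for N2 (adjusted P-value 0.025) and -1.67 ± 0.38 for *hsf-1(sy441)* (adjusted P-value 0.013), both short of the threshold. In *hsf-1(sy441)* the paired fit passed, at -1.76 (adjusted P-value 0.0070), as did DESeq2 (0.00064), which also called N2 (0.0017). The heat-shocked library held less *elo-2* in 12 of 12 same-numbered pairs, which follows from the lack of overlap and adds nothing to it. The calls rested on few libraries, since in *hsf-1FL* and in *hsf-1CTD* leaving out replicate 1 or 2 of either treatment ended the call, with adjusted P-values of 0.0137 to 0.0288 in *hsf-1FL* and 0.0118 to 0.0179 in *hsf-1CTD*, as did a fit of only the 6 *hsf-1FL* libraries (0.0137). Without replicate 3 of heat-shocked *hsf-1(sy441)*, *elo-2* was called there too, at -2.16 (adjusted P-value 0.0025).

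*elo-5*, which elongates branched-chain fatty acids, was at 104, 158 and 96.5 CPM in untreated *hsf-1(sy441)* and at 11.5, 19.8 and 26.4 CPM after heat-shock. In *hsf-1FL* the untreated libraries held 148, 107 and 66.7 CPM and the heat-shocked ones 37.6, 20.7 and 12.98 CPM, and in *hsf-1CTD* they held 118, 99.1 and 59.6 CPM and 24.2, 22.9 and 14.6 CPM. These 3 genotypes showed no overlap. N2 differed in 1 library, since its untreated replicate 1 held 20.8 CPM beside 104 and 78.5 CPM, while the heat-shocked libraries held 26.7, 22.5 and 15.8 CPM, so the groups overlapped.

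The log2(fold-change) of *elo-5* was -2.63 ± 0.50 in *hsf-1(sy441)* (adjusted P-value 0.0039), -2.17 ± 0.49 in *hsf-1FL* (adjusted P-value 0.018), -2.17 ± 0.49 in *hsf-1CTD* (adjusted P-value 0.019) and -1.65 ± 0.48 in N2 (adjusted P-value 0.093). In *hsf-1FL* the paired fit passed, at -2.23 (adjusted P-value 0.0049), and DESeq2 called *hsf-1FL* (0.00038) and *hsf-1CTD* (0.00041). Leaving out replicate 1 or 2 of heat-shocked *hsf-1(sy441)* or replicate 2 of the untreated animals ended the call there, with adjusted P-values of 0.0199 to 0.0268, as did a fit of only the 6 *hsf-1(sy441)* libraries (0.0446). Without a stated strand setting, reads of *elo-5* and of *F41H10.3* over the shared exon bases cannot be told apart.

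*elo-1*, which elongates polyunsaturated fatty acids, was lower after heat-shock in every genotype by much less, with a log2(fold-change) of -0.24 in N2, -0.50 in *hsf-1(sy441)*, -0.41 in *hsf-1CTD* and -0.26 in *hsf-1FL* (SE 0.16 in each) and adjusted P-values of 0.078 to 0.668. The paired fit called it in *hsf-1(sy441)*, at -0.50 (adjusted P-value 0.0046), and it was called in all 4 genotypes, at -0.58 to -0.34, when surrogate variables (variation among libraries estimated from the counts, not from the labels) were added to edgeR or DESeq2. It lay at 255, 249 and 215 CPM in untreated *hsf-1CTD* and at 187, 185 and 171 CPM after heat-shock, without overlap, whereas in *hsf-1FL* the groups overlapped.

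The intestine is the main site of fat storage and of much of this enzyme set in the worm. Genes that mark it had lower mean summed levels after heat-shock, with overlap between treatments in N2 and *hsf-1FL*. Over 8 such genes, all detected in every condition, the sums ranged from 2710 to 3708 CPM in untreated N2 and from 1103 to 2885 CPM in heat-shocked N2. They ranged from 2890 to 3770 CPM and 1243 to 3053 CPM in *hsf-1FL*, from 2896 to 3309 CPM and 1050 to 2442 CPM in *hsf-1CTD*, and from 2978 to 4588 CPM and 1854 to 2234 CPM in *hsf-1(sy441)*. The part of this shift in the lower elongase levels, or in the higher *fat-1*, *fat-2* and *fat-6* levels, was not tested.

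**Figure D2:**
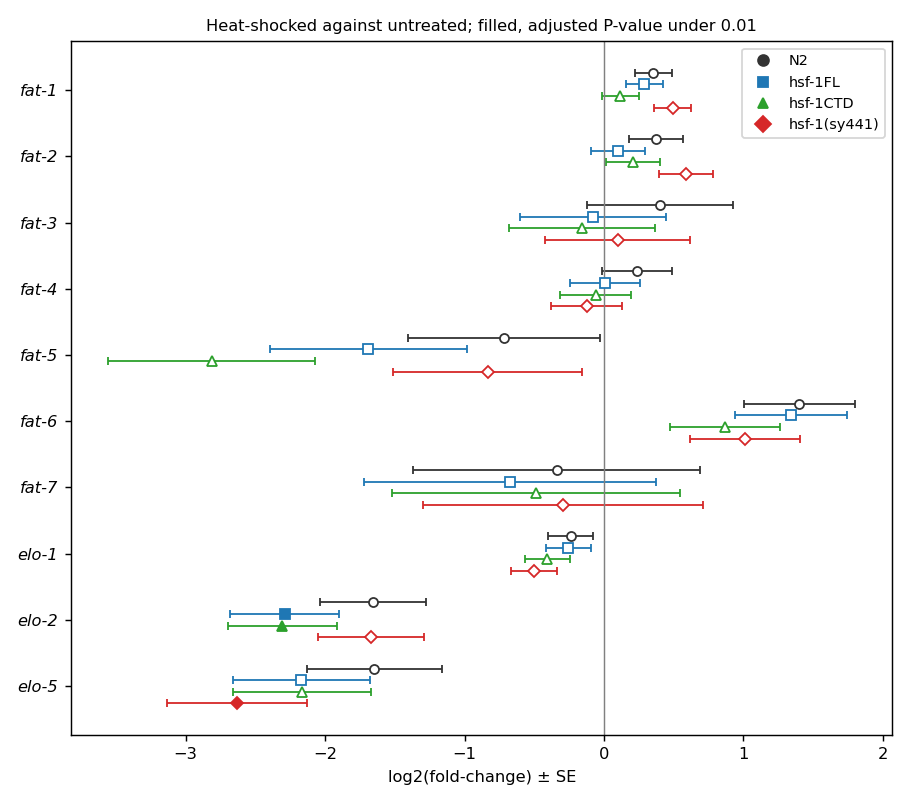
log2(fold-change) ± SE of heat-shocked against untreated animals for the 10 genes in 4 genotypes, filled where the adjusted P-value was under 0.01. The filled points are *elo-2* in *hsf-1FL* and *hsf-1CTD* and *elo-5* in *hsf-1(sy441)*, and the points of *fat-6* lie between 0.87 and 1.40.

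Among the desaturases of the first double bond, *fat-6* was higher and *fat-5* lower after heat-shock in the mean of every genotype. Neither passed the edgeR threshold given above, although other fits named below called them in some genotypes. *fat-6*, the most abundant of the 3, was at 71.0, 191 and 148 CPM in untreated N2 and at 568, 309 and 206 CPM after heat-shock. In *hsf-1FL* it was at 203, 174 and 109 CPM untreated and 609, 406 and 217 CPM heat-shocked, and in *hsf-1CTD* at 184, 194 and 134 CPM and 272, 373 and 289 CPM. In *hsf-1(sy441)* the levels were 281, 448 and 398 CPM untreated and 537, 831 and 902 CPM heat-shocked. In all 4 genotypes the lowest heat-shocked library lay above the highest untreated one, which held for 8.52% of all genes in N2, 12.2% in *hsf-1FL* and 10.7% in *hsf-1(sy441)* (in *hsf-1CTD*, for 2293 of 15256 genes).

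The log2(fold-change) of *fat-6* was 1.40 ± 0.40 in N2 (adjusted P-value 0.081), 1.34 ± 0.40 in *hsf-1FL* (adjusted P-value 0.076), 0.87 ± 0.40 in *hsf-1CTD* (adjusted P-value 0.277) and 1.01 ± 0.40 for *hsf-1(sy441)* (adjusted P-value 0.153), so the threshold was not met. With DESeq2 and surrogate variables *fat-6* was called higher in N2 (1.15, adjusted P-value 0.0049), *hsf-1FL* (1.17, 0.0052) and *hsf-1(sy441)* (1.03, 0.0062), while edgeR with surrogate variables did not call it. The paired fit did not call it either, in N2 (1.35, adjusted P-value 0.044), *hsf-1FL* (1.27, 0.036) or *hsf-1(sy441)* (1.00, 0.061). *fat-6* was higher in 12 of 12 same-numbered pairs, which likewise follows from the lack of overlap. The untreated level of N2 replicate 1 was less than that of either other replicate while its heat-shocked level was the highest, and the log2(fold-change) in N2 was 0.60 without that replicate in both treatments.

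*fat-5*, which acts mainly on palmitic acid, was at 43.2, 28.3 and 19.8 CPM in untreated *hsf-1CTD* and at 3.81, 2.80 and 6.33 CPM after heat-shock, without overlap. Its log2(fold-change) there was -2.81 ± 0.74 (adjusted P-value 0.041). The groups of *hsf-1FL* did not overlap either (23.1, 36.3 and 15.9 CPM against 8.37, 5.71 and 9.19 CPM; -1.69 ± 0.71, adjusted P-value 0.253), while those of N2 (-0.72, SE 0.69) and *hsf-1(sy441)* (-0.83, SE 0.68) did. DESeq2 called it in *hsf-1CTD* (-2.78, adjusted P-value 0.0019). In N2 replicate 1 was higher after heat-shock (1.78 and 9.46 CPM), and leaving out 1 library moved the N2 value between -1.43 (without heat-shocked replicate 3) and -0.058 (without untreated replicate 3).

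*fat-7*, the paralog of *fat-6*, varied far more between replicates than with heat. In untreated N2 it was at 6.23, 6.90 and 60.1 CPM and in heat-shocked N2 at 5.87, 7.94 and 44.1 CPM. The third replicate was the highest in all 8 conditions, with 49.2 and 29.1 CPM in *hsf-1FL*, 54.3 and 38.4 CPM in *hsf-1CTD* and 291 and 207 CPM in *hsf-1(sy441)*, untreated and heat-shocked. Its log2(fold-change) after heat-shock lay between -0.67 and -0.29 with an SE of 1.00 to 1.05, and all 4 pairs of groups overlapped. Its sign changed in each genotype when 1 library was left out, with values from -2.19 to 1.56. In 11 of 12 same-numbered pairs the heat-shocked library was the lower one, though the numbers were not taken as pairs in *hsf-1CTD*. In the paired fit it was at -0.15 in N2, -0.54 in *hsf-1FL* and -0.27 in *hsf-1(sy441)* (adjusted P-values 0.607, 0.041 and 0.169), none past the threshold. For no other gene of the 10 did 1 replicate number hold the highest library in more than 6 of 8 conditions (*fat-1*, replicate 2).

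Set against each other within a library, per kilobase of exon, *fat-6* made up 79.7 ± 15.6% of the summed *fat-5*, *fat-6* and *fat-7* level in untreated N2 and 90.1 ± 11.9% after heat-shock. The shares were 76.2 ± 13.2% and 93.2 ± 7.56% in *hsf-1FL*, 73.4 ± 9.45% and 92.5 ± 5.57% in *hsf-1CTD*, and 56.2 ± 3.82% and 77.8 ± 1.25% in *hsf-1(sy441)*. The sum itself was 153 ± 74.5 RPKM in untreated N2 and 336 ± 145 RPKM in heat-shocked N2, and 575 ± 139 and 837 ± 223 RPKM in *hsf-1(sy441)*. *fat-6* supplied most of these transcripts in every condition, with a higher mean share after heat-shock in each genotype and the lowest share in untreated *hsf-1(sy441)*, where *fat-7* made up 30.7 ± 7.84%. Since the 2 paralogs may share reads, the shares describe the counts as deposited.

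**Figure D3:**
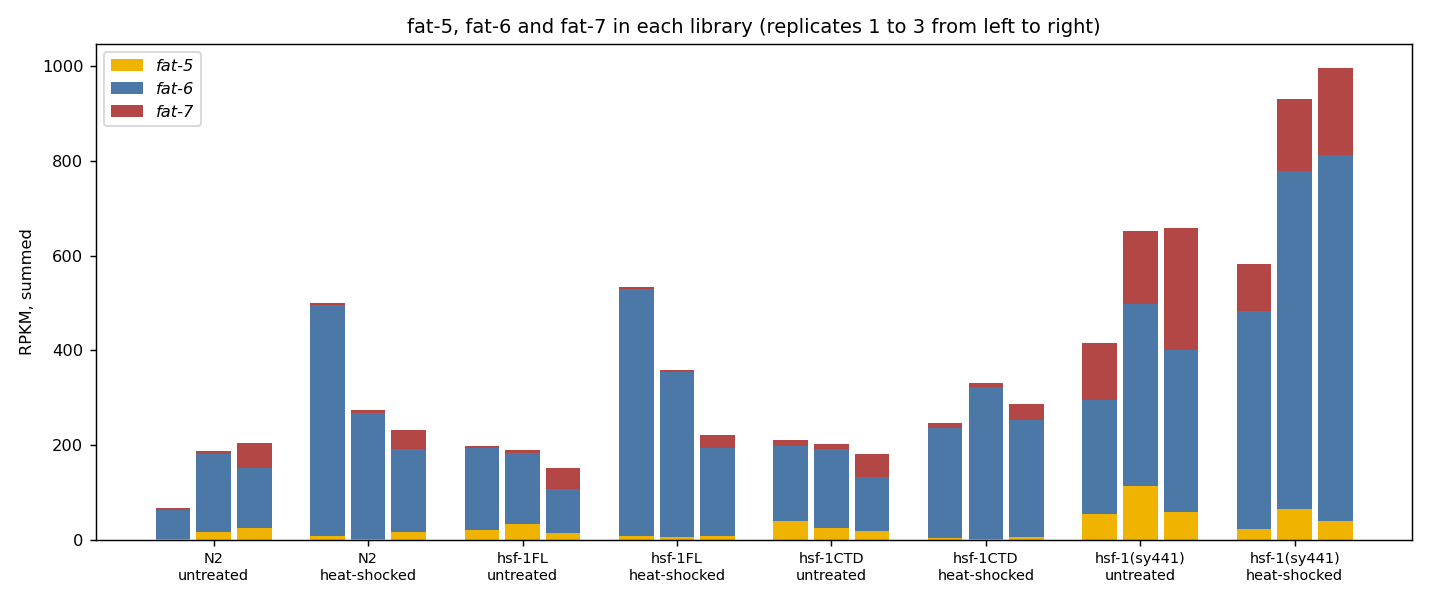
Summed RPKM of *fat-5*, *fat-6* and *fat-7* in each library, with replicates 1 to 3 from left to right in each condition. The sums run from 68.0 RPKM (untreated N2 replicate 1) to 997 RPKM (heat-shocked *hsf-1(sy441)* replicate 3), and the *fat-7* part is widest in the third replicates and in *hsf-1(sy441)*.

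The desaturases of polyunsaturated fatty acids had smaller differences with heat. *fat-1* was at 248, 292 and 269 CPM in untreated N2 and at 319, 373 and 343 CPM after heat-shock (log2(fold-change) 0.36 ± 0.13, adjusted P-value 0.215), without overlap. In *hsf-1(sy441)* it was 0.49 ± 0.13 (adjusted P-value 0.033), with 392, 514 and 416 CPM untreated and 518, 685 and 659 CPM heat-shocked, again without overlap, and the paired fit (0.49, adjusted P-value 0.0015) and DESeq2 (0.0047) called it. For *hsf-1FL* and *hsf-1CTD* it was 0.29 and 0.12 (SE 0.13 in both) with overlap. *fat-2*, which acts just before it, was higher by 0.37 in N2, 0.59 in *hsf-1(sy441)*, 0.10 in *hsf-1FL* and 0.21 in *hsf-1CTD* on the log2 scale (SE 0.19 in each, adjusted P-values 0.086 to 0.931). The paired fit called it in *hsf-1(sy441)*, at 0.57 (adjusted P-value 8.5e-04). Both genes were higher in the heat-shocked library of 12 of 12 same-numbered pairs, among them those of *hsf-1CTD*, where the numbers were not taken as pairs.

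*fat-3* and *fat-4*, which act later in the pathway, showed no common direction, and their adjusted P-values after heat-shock were 0.858 or above in all 4 genotypes. *fat-3* was at 260, 92.6 and 56.5 CPM in untreated N2 and at 389, 93.8 and 58.3 CPM after heat-shock, so the difference between N2 replicate 1 and the other replicates was larger than any difference with heat. *fat-4*, its neighbour on the chromosome, lay between 177 and 316 CPM in the untreated libraries and between 148 and 335 CPM in the heat-shocked ones.

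In all, groups did not overlap for 2 higher and 2 lower genes of the 10 in N2 (8.52% and 6.46% of all genes), 3 and 2 in *hsf-1(sy441)* (10.7% and 9.65%), 1 and 3 in *hsf-1FL* (12.2% and 13.5%), and 1 and 4 in *hsf-1CTD* (2293 of 15256 genes and 15.7%). The 3 elongases were lower in all 4 genotypes, and *fat-1*, *fat-2* and *fat-6* higher in all 4, although *fat-1* in *hsf-1CTD* came to -0.0021 with edgeR and surrogate variables and *fat-2* in *hsf-1FL* to -0.081 without its heat-shocked replicate 1 and to -0.012 without its untreated replicate 2. No set of genes was tested as such.

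The next question was whether the heat response of any of the 10 genes differed between N2 and the other genotypes. In the interaction test of edgeR 0 of 30 member tests passed (adjusted P-values 0.99998 or above), and 0% of all genes did in each of the 3 comparisons. DESeq2 also called 0 of the 30, and 0.0131% of all genes for *hsf-1FL*, 0.0131% for *hsf-1CTD* and 0.0394% for *hsf-1(sy441)*. At an unadjusted p under 0.05 stood 0.596%, 0.583% and 3.26% of all genes. Of the 30, 1 test had an unadjusted p under 0.05, *fat-5* in *hsf-1CTD*, with a difference of -2.09 ± 0.99 on the log2 scale from the response of N2 (unadjusted p = 0.048 from the fit across all genes). Among the elongases the largest difference was that of *elo-5* in *hsf-1(sy441)*, -0.99 with an SE of 0.67. A call in one genotype and not in another is therefore not shown to be a difference between them, and all 3 interactions share the N2 libraries.

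The comparison of *hsf-1(sy441)* with N2 asks how loss of the HSF-1 C-terminus in all cells goes with these transcripts. *fat-1* and *fat-2* were higher in *hsf-1(sy441)* in both treatments, and *fat-5* and *fat-7* had larger differences in both treatments, and *fat-6* in untreated animals, that did not pass the threshold. No elongase passed. Of the 10 genes, 2 passed in untreated animals, where 0.610% of all genes did (0.492% higher), and 2 in heat-shocked animals, where 0.891% did (0.682% higher). The median log2(fold-change) of the 10 was 0.76 untreated and 0.65 heat-shocked, against 0.036 and 0.024 over all genes tested.

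*fat-2* was at 321, 245 and 272 CPM in untreated N2 and at 540, 631 and 655 CPM in untreated *hsf-1(sy441)*, and at 421, 321 and 345 CPM against 710, 939 and 1093 CPM after heat-shock. *fat-1* stood at 248, 292 and 269 CPM against 392, 514 and 416 CPM untreated, and at 319, 373 and 343 CPM against 518, 685 and 659 CPM after heat-shock. For both genes every *hsf-1(sy441)* library lay above every N2 library of the same treatment. The log2(fold-change) of *fat-2* was 1.12 ± 0.20 untreated (adjusted P-value 0.0047) and 1.33 ± 0.20 heat-shocked (adjusted P-value 8.2e-04).

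That of *fat-1* was 0.71 ± 0.13 (adjusted P-value 0.0070) and 0.85 ± 0.13 (adjusted P-value 0.0013). In untreated animals the call of *fat-1* was lost without replicate 1, 2 or 3 of N2 or replicate 2 or 3 of *hsf-1(sy441)* (adjusted P-values 0.0155 to 0.0424), and with surrogate variables in edgeR, where it came to 0.42 (0.072), and that of *fat-2* without replicate 2 or 3 of either genotype (0.0186 to 0.0353) or with scaling by library size only (0.0130). In heat-shocked animals *fat-2* passed whichever library was left out, while *fat-1* came to 0.79 without replicate 2 of *hsf-1(sy441)*, with an adjusted P-value of 0.01002. A fit of only the 6 libraries of each comparison ended all 4 calls, with adjusted P-values of 0.126 (*fat-1*) and 0.0752 (*fat-2*) untreated and 0.290 and 0.223 heat-shocked.

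*fat-7* showed the largest difference of the 10 genes. It was at 6.23, 6.90 and 60.1 CPM in untreated N2 and at 136, 175 and 291 CPM in untreated *hsf-1(sy441)*, and at 5.87, 7.94 and 44.1 CPM against 112, 172 and 207 CPM after heat-shock. All *hsf-1(sy441)* libraries were above all N2 libraries, but the spread within N2 was wide, set by its replicate 3. The log2(fold-change) was 3.04 ± 1.09 untreated (adjusted P-value 0.077) and 3.08 ± 1.09 heat-shocked (adjusted P-value 0.087). These values depended on the model. With surrogate variables *fat-7* was called, at 5.83 untreated and 5.01 heat-shocked in DESeq2 (adjusted P-values 1.2e-36 and 6.7e-32) and at 5.67 and 5.00 in edgeR (1.5e-06 and 1.6e-06). Without replicate 3 of N2 it came to 4.97 untreated and 4.57 heat-shocked, short of the threshold.

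*fat-5* was at 1.78, 18.3 and 27.7 CPM in untreated N2 and at 59.1, 125 and 64.8 CPM in untreated *hsf-1(sy441)*, a log2(fold-change) of 2.38 ± 0.71 (adjusted P-value 0.046) without overlap. After heat-shock the values were 9.46, 2.23 and 17.3 CPM against 24.4, 71.6 and 43.9 CPM (2.27 ± 0.71, adjusted P-value 0.060), again without overlap. *fat-6* differed by 1.46 ± 0.40 untreated (adjusted P-value 0.037), where the lowest *hsf-1(sy441)* library at 281 CPM was above the highest N2 library at 191 CPM, and by 1.07 ± 0.40 heat-shocked (adjusted P-value 0.099), where N2 replicate 1 at 568 CPM exceeded *hsf-1(sy441)* replicate 1 at 537 CPM. In untreated animals DESeq2 called *fat-5* (adjusted P-value 0.0055) and *fat-6* (0.0029).

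In total, the *hsf-1(sy441)* libraries lay above all N2 libraries for 6 of the 10 genes when untreated (15.8% of all genes) and for 4 of 10 when heat-shocked (11.6%), and below them for 0 of 10 in either treatment (13.8% and 6.38% of all genes). The 6 were *fat-1*, *fat-2*, *fat-4*, *fat-5*, *fat-6* and *fat-7*, and *fat-4* and *fat-6* were not among the 4. Tissue markers also differed between these genotypes, most clearly in untreated animals. Over 8 genes each, summed hypodermis markers ran from 820 to 1817 CPM in untreated *hsf-1(sy441)* against 406 to 711 CPM in N2, and oocyte and germline markers from 6026 to 9612 CPM against 9816 to 12270 CPM, beside the muscle and sperm genes given above, whereas intestinal markers overlapped (2978 to 4588 against 2710 to 3708 CPM). After heat-shock the ranges of *hsf-1(sy441)* and N2 overlapped for hypodermis markers (862 to 3217 against 321 to 1088 CPM). They also overlapped for oocyte and germline markers (5711 to 9673 against 7589 to 14360 CPM). Muscle (7387 to 16110 against 3633 to 5950 CPM) and sperm markers (6.62 to 279 against 1.39 to 3.04 CPM) stayed apart. The part of tissue makeup in the higher desaturase levels was not tested. Without replicate 3 of *hsf-1(sy441)* in both treatments, *fat-1* and *fat-2* still passed in untreated and heat-shocked animals. Leaving out only the untreated library of that replicate ended both untreated calls.

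**Figure D4:**
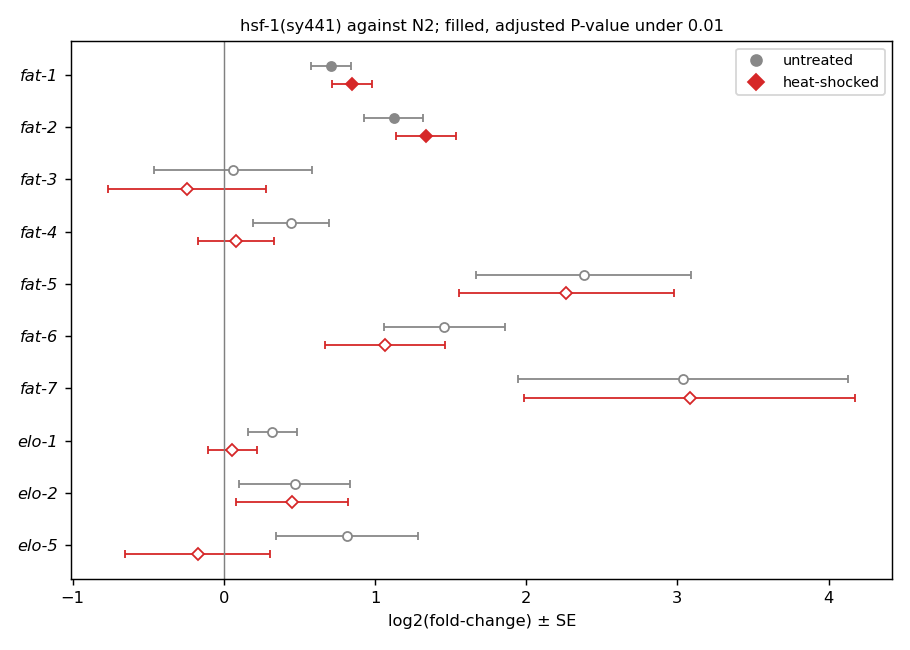
log2(fold-change) ± SE of *hsf-1(sy441)* against N2 for the 10 genes in untreated (grey circles) and heat-shocked (red diamonds) animals, filled where the adjusted P-value was under 0.01. Only *fat-1* and *fat-2* are filled, in both treatments, and *fat-7* lies farthest to the right, at 3.04 and 3.08, with the widest error bars.

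The neuronal lines were compared with N2 to ask whether *hsf-1* in neurons goes with a change in these transcripts of the whole animal. With edgeR 0 of 40 member tests passed (adjusted P-values 0.378 or above), where 0.0197% of all genes passed for *hsf-1FL* in each treatment, 0.0197% for untreated and 0.0131% for heat-shocked *hsf-1CTD*. DESeq2 called 0 of the 40 as well, and 0.558% and 0.0984% of all genes for untreated and heat-shocked *hsf-1FL* and 0.0853% and 0.0788% for *hsf-1CTD*. In the same order 7.44%, 6.35%, 1.20% and 3.70% of all genes had an unadjusted p under 0.05, and 1 of the 40 tests did. That test was *fat-2* in untreated *hsf-1FL*, at 500, 337 and 372 CPM against 321, 245 and 272 CPM in N2, a log2(fold-change) of 0.53 ± 0.19 (adjusted P-value 0.378) in which the lowest *hsf-1FL* library was above the highest N2 library (9.43% of all genes). These comparisons use the same N2 libraries as those of *hsf-1(sy441)*.

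Around the 10 genes, 37 further genes of the pathway were listed, namely other elongases, the remaining enzymes of the elongation cycle, fatty acid synthesis, electron donors, regulators of the first desaturation step, membrane fluidity sensors, phosphatidylcholine synthesis and sphingolipid desaturases. All 37 were tested. After heat-shock 0 of 37 passed in N2 and in *hsf-1FL* with edgeR (8 in each at an unadjusted p under 0.05, where 14.7% of all genes stood in *hsf-1FL*, and 1 and 2 with DESeq2, which called 3.21% of all genes in *hsf-1FL*), 1 was called lower in *hsf-1CTD* and 1 higher in *hsf-1(sy441)*. Against N2, 0 of 37 passed for *hsf-1(sy441)* in either treatment with edgeR (11 untreated and 8 heat-shocked at an unadjusted p under 0.05, where 29.6% of all genes and 3820 of 15256 genes stood, and 5 and 3 with DESeq2, against 7.25% and 6.58%).

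The gene called in *hsf-1CTD* was *cept-1*, related to the choline and ethanolamine phosphotransferases that complete phospholipid synthesis in mammals. It fell from 28.8, 27.1 and 20.5 CPM to 3.81, 2.49 and 5.64 CPM, without overlap (log2(fold-change) -2.67 ± 0.50, adjusted P-value 0.0050). Leaving out replicate 1 or 2 of either treatment ended that call, with adjusted P-values of 0.0256 to 0.0367. In the other genotypes the log2(fold-change) was -1.72 in N2, -2.41 in *hsf-1FL* (adjusted P-value 0.0102, and 0.0044 in the paired fit) and -1.48 for *hsf-1(sy441)*, where replicate 3 kept 21.3 CPM after heat-shock beside 3.71 and 6.44 CPM in the others.

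*elo-6*, the partner of *elo-5* in the elongation of branched-chain fatty acids and its neighbour at a distance of 9511 bases on the same strand, was at 50.9, 175 and 162 CPM in untreated N2 and at 33.5, 12.95 and 36.3 CPM after heat-shock. The log2(fold-change) was -2.23 ± 0.60 in N2 (adjusted P-value 0.060), -2.90 ± 0.61 in *hsf-1FL* (adjusted P-value 0.0126), -2.77 ± 0.61 in *hsf-1CTD* (adjusted P-value 0.016) and -2.28 ± 0.59 for *hsf-1(sy441)* (adjusted P-value 0.029). None of these passed in this fit, and in none did the groups overlap. DESeq2 called *elo-6* lower in all 4 genotypes, as did both fits with surrogate variables, and the paired fit called it in *hsf-1FL* (-2.91, adjusted P-value 0.0095). Without heat-shocked replicate 3 of *hsf-1(sy441)*, which held 116 CPM beside 22.4 and 26.4 CPM, the value there was -3.47 (adjusted P-value 0.0015).

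Regulators of the first desaturation step showed smaller differences. *nhr-49*, a nuclear receptor known to promote *fat-7* expression, rose after heat-shock in *hsf-1(sy441)*, from 126, 106 and 105 CPM to 152, 172 and 148 CPM (log2(fold-change) 0.48 ± 0.10, adjusted P-value 0.0070), a call that was lost without replicate 1 or 2 of the heat-shocked or replicate 2 or 3 of the untreated libraries (adjusted P-values 0.0170 to 0.0416), without replicate 3 in both treatments (0.0230), in a fit of only the 6 libraries (0.271), with a filter of 1 count in any library (0.0763), and with scaling by library size only (0.0213) or by the upper quartile (0.0115). In the other genotypes its log2(fold-change) lay between -0.0041 and 0.060. *mdt-15*, a Mediator subunit that acts with *nhr-49* and *sbp-1*, was at -0.52 in N2 (adjusted P-value 0.039), -0.24 in *hsf-1(sy441)*, -0.42 in *hsf-1FL* and -0.59 in *hsf-1CTD* (adjusted P-value 0.015), with an SE of 0.13 in each. DESeq2 called *mdt-15* lower after heat-shock in *hsf-1CTD* only. There it called 4 of the 37 pathway genes lower and 560 genes in all.

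The other regulators on the list that are named here did not pass in any heat comparison. These were *sbp-1*, the worm SREBP, with a log2(fold-change) of -0.38 to 0.24, *nhr-80*, a nuclear receptor for *fat-6*, with -0.74 to 0.0036, *acdh-11*, an acyl-CoA dehydrogenase known to limit *fat-7*, with 0.17 to 0.24, and *paqr-2*, a sensor of membrane fluidity, with -0.13 to -0.0087.

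**Figure D5:**
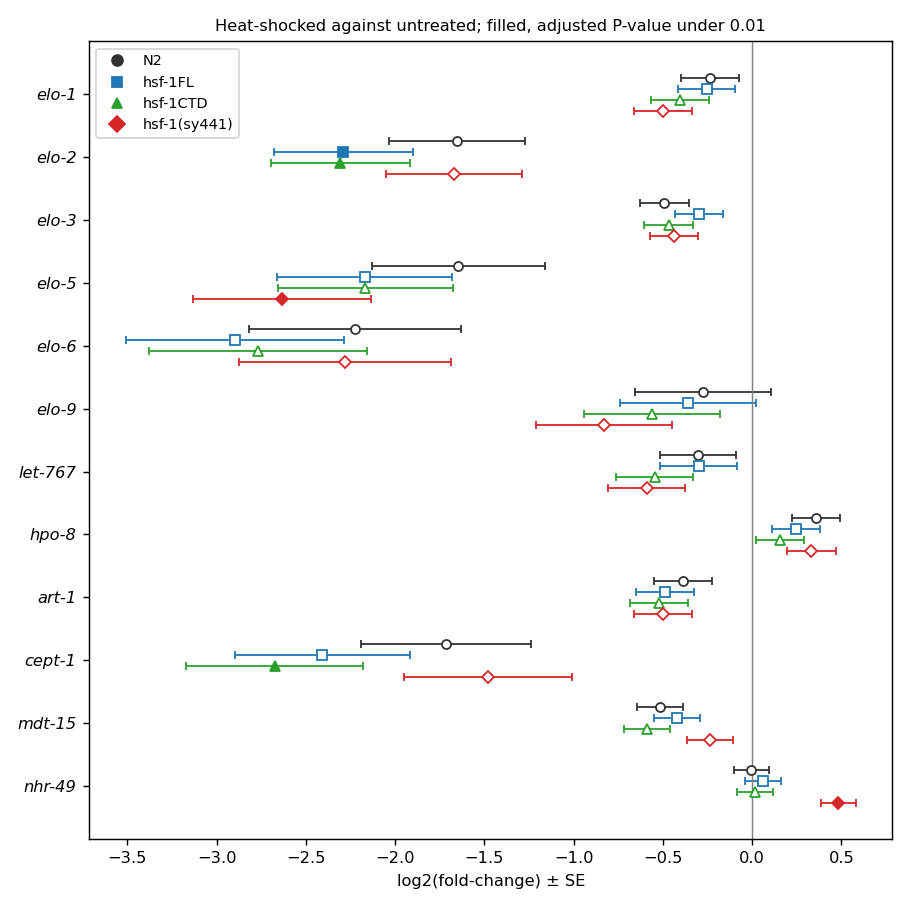
log2(fold-change) ± SE of heat-shocked against untreated animals for elongases, enzymes of the elongation cycle (*let-767*, *hpo-8* and *art-1*) and 3 genes of the wider pathway, filled where the adjusted P-value was under 0.01. *elo-2*, *elo-5*, *elo-6* and *cept-1* lie between -2.90 and -1.48, while *elo-1*, *elo-3* and the cycle enzymes lie within 1 log2 unit of 0.

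As a description of likeness, the Pearson correlation of log2 CPM over the 24 libraries was computed between each of the 10 genes and all others tested. Within the 10, *fat-1* and *fat-2* had an r of 0.895, *elo-2* and *elo-5* 0.852, *fat-1* and *fat-6* 0.85, *elo-1* and *elo-2* 0.794 and *fat-3* and *fat-4* 0.777. Outside them, *fat-5* was most like *F41E6.12* (0.907), *T10G3.3* (0.877) and *ppw-2* (0.869), *fat-6* most like *lias-1* (0.891), *pals-34* (0.891) and *ttr-24* (0.886), and *fat-7* most like *dhs-26* (0.913), *Y69H2.3* (0.912) and *K10C2.8* (0.901). Chosen after its values were seen, *elo-2* had *acp-6* (0.976), *cept-1* (0.974) and *acs-5* (0.969) as its nearest genes, and *elo-1* had *let-767* (0.96), which encodes a ketoacyl reductase of the elongation cycle. The 24 libraries fall into heat-shocked and untreated ones and share depth and tissue makeup, so these values carry no test.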

How the data were processed

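Read trimming by the authors (Trim Galore) was followed by alignment with STAR 2.7.10a to WBcel235 and counting in featureCounts of Subread 2.0.3. They deposited unnormalised counts for 46934 genes. Strand and multimapping settings are not given in the sources used here. Genes reaching 10 counts in 3 or more libraries were fitted in edgeR 4.0.16 (R 4.3.3, limma 3.58.1) with TMM scaling (factors 0.896 to 1.10) and a mean for each of 8 conditions over all 24 libraries. Quasi-likelihood F-tests for 13 comparisons were adjusted over 15256 genes by the Benjamini-Hochberg method, with a threshold of 0.01. CPM used TMM library sizes, and RPKM is CPM per kilobase of merged exons. Correlations used log2 CPM with a prior count of 2. The biological coefficient of variation was 42.2%.

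The 10 genes and the lists were chosen with earlier results of these data known. Named were the 10 genes, *hsf-1*, *hsp-16.2*, *hsp-70* (higher after heat-shock in all 4 genotypes), listed pathway genes past the threshold in any comparison, 7 fixed pathway genes, and the 3 genes most like each of *fat-5*, *fat-6* and *fat-7*. Same-numbered libraries were taken as pairs where all 3 pairs of deviations from the condition means correlated above 0.1. This held for untreated and heat-shocked animals of N2 (0.32 to 0.59), *hsf-1FL* (0.26 to 0.62) and *hsf-1(sy441)* (0.25 to 0.81), not of *hsf-1CTD* (-0.048 to 0.27). It also held for *hsf-1FL* against N2 (lowest 0.19 untreated, 0.30 heat-shocked) and heat-shocked *hsf-1CTD* against N2 (lowest 0.25), not for untreated *hsf-1CTD* (lowest -0.27) or for *hsf-1(sy441)* against N2 (lowest 0.092 and 0.073). Labels give only the number. Alternatives were DESeq2 1.42.0, 3 surrogate variables (sva 3.50.0), replicate blocks, other scalings, filters and thresholds, fits of only the libraries compared and leaving out libraries. Code was tested on simulated data.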

Additional observations from a re-analysis of the deposited data

How the results depend on the processing

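The direction of the *elo-2*, *elo-5*, *fat-6*, *elo-6* and *cept-1* heat responses, and of the *fat-1*, *fat-2*, *fat-5*, *fat-6* and *fat-7* differences between *hsf-1(sy441)* and N2, was the same in every alternative and with every library left out. Calls were less stable, and the cause was not tested. Of the 10 genes, the number called after heat-shock was 0 in N2 and 1 in each of *hsf-1FL*, *hsf-1CTD* and the mutant *hsf-1(sy441)*. In that order it became 1, 2, 3 and 3 at an adjusted P-value under 0.05 (1.98%, 3.21%, 3.36% and 5.30% of all genes) and with DESeq2 (2.39%, 3.21%, 3.68% and 4.90%), 4, 4, 4 and 6 with DESeq2 and surrogate variables (7.07%, 7.25%, 9.98% and 13.8%), 3, 3, 4 and 5 with edgeR and surrogate variables (4.09%, 4.18%, 915 of 15256 genes and 9.71%), 1, 2, 2 and 2 with a filter of 1 count (0.577%, 0.724%, 0.782% and 0.951%), 0, 0, 3 and 0 with only the libraries compared (0.0655%, 0.649%, 1.47% and 0%), and 2 in *hsf-1(sy441)* with library size only (1.57%). Between *hsf-1(sy441)* and N2, 2 genes were called untreated, which became 4 at an adjusted P-value under 0.05 (8.32%) and with DESeq2 (7.25%), 3 with DESeq2 and surrogate variables (1.67%), 1 with library size only (0.544%) and 0 with only the libraries compared (0.0131%). In heat-shocked animals the 2 called became 3, *fat-7* included, with either fit of surrogate variables (4.06% DESeq2, 1.88% edgeR). A fit of only the libraries compared ended both calls, as given above.

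Leaving out 1 library gave 0 to 0, 0 to 1, 0 to 1 and 0 to 2 genes for heat in the same order, 0 to 2 for *hsf-1(sy441)* against N2 untreated and 1 to 2 heat-shocked. Chosen after seeing the data, leaving out both libraries of *hsf-1FL* replicate 1 gave 0 in *hsf-1FL*, of *hsf-1(sy441)* replicate 3 gave 2 in *hsf-1(sy441)*, and of N2 replicate 1 gave 1 for *hsf-1(sy441)* against N2 untreated.

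With the additive replicate block the heat calls among the 10 genes were the same as without it. For *hsf-1(sy441)* against N2 it called *fat-7* beside *fat-1* and *fat-2* in both treatments (*fat-7* at 3.78 untreated, 3.77 heat-shocked). The numbers were not taken as pairs in that comparison. In *hsf-1CTD* the replicate block within each genotype added *elo-5* (-2.14, adjusted P-value 0.0055), where the numbers were not taken as pairs either. Where they were, it changed no call other than those given. No interaction and no comparison of a neuronal line with N2 called any of the 10 genes under any alternative.

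With surrogate variables the heat response of *fat-7* turned to 0.28 (DESeq2) and 0.14 (edgeR) in N2, 0.13 and 0.051 in *hsf-1FL* and 0.033 (DESeq2) in *hsf-1CTD*, and that of *fat-1* in *hsf-1CTD* to -0.0021 (edgeR). Leaving out 1 library moved *fat-7* between -1.83 and 1.56 in N2, -2.19 and 1.14 in *hsf-1FL*, -1.41 and 0.49 in *hsf-1CTD* and -0.54 and 0.074 in *hsf-1(sy441)*, and *fat-2* in *hsf-1FL* between -0.081 and 0.30. Scaling by library size only moved 3 mean levels beyond 1 SD, *fat-1* in untreated *hsf-1CTD* to 289 CPM, and *fat-3* and *elo-1* in heat-shocked *hsf-1CTD* to 107 and 190 CPM.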
